A study of Mus musculus with 36 samples.

Results

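The glucose-6-phosphatase system and the enzymes particular to gluconeogenesis were followed through RNA-sequencing of primary mouse hepatocytes as 7 genes: G6pc (G6pc1 in newer annotations), G6pc3, Slc37a4, Pcx, Pck1, Pck2 and Fbp1. They were chosen by name, as the genes that encode the steps by which the liver makes and releases glucose. Of the 52230 genes with a matched transcript 12177 had enough reads to be tested, and all 7 were among them. Hepatocytes came from 3 female mice of the P446L knock-in strain, aged 14 weeks, which carry the leucine form of residue 446 in their own glucokinase regulatory protein (GKRP, gene Gckr). By the sample labels the Gckr genotype of mouse 3 is 446P/L, that of the other animals 446L, whereas the methods of the study describe homozygous 446L animals, and which holds for mouse 3 was not tested. All cultures had 10 nM insulin and 10 nM dexamethasone, a synthetic glucocorticoid. They were cultured for 24 h at 5 mM glucose and then incubated with 25 mM glucose for 4 h.

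The mice gave 36 cultures in 10 conditions. At endogenous glucokinase (GK) hepatocytes were untreated or received an adenoviral vector for human GKRP-446P (hP), human GKRP-446L (hL), mouse GKRP-446P (mP) or mouse GKRP-446L (mL). The same 5 conditions were repeated with a GK vector, at a titre set to raise GK by 2 to 4 fold. Untreated hepatocytes and GK alone had 2 cultures per mouse, which were summed, and the other conditions had 1, so that every condition had n = 3 mice. The untreated cultures received no vector, and no culture with a control vector was among the 10 conditions.

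Glucose-6-phosphatase is the last step of both gluconeogenesis and glycogen breakdown. Its catalytic subunit, encoded by G6pc, hydrolyses glucose 6-phosphate inside the endoplasmic reticulum, and the transporter encoded by Slc37a4 brings the substrate there. G6pc opposes glucokinase, and its transcription is known to be repressed by insulin and raised by glucose through the carbohydrate response factor ChREBP (gene Mlxipl). Pyruvate carboxylase (Pcx) and the cytosolic and mitochondrial forms of phosphoenolpyruvate carboxykinase (Pck1 and Pck2) bypass pyruvate kinase, and fructose 1,6-bisphosphatase (Fbp1) bypasses phosphofructokinase.

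The sequences before the start sites of G6pc, Slc37a4 and Pck1 are shown because the first pair moved together in these data while Pck1, also known for its hormonal control, followed another pattern. The 250 bases before the RefSeq start of each (build GRCm38.p6, plus strand, 5′ to 3′) were chr11:101367466-101367715 for G6pc, chr9:44398104-44398353 for Slc37a4 and chr2:173152823-173153072 for Pck1. Slc37a4 has 3 RefSeq starts, and the one nearest to the start of its most-read transcript was used. The RefSeq start lay 173 (G6pc), 178 (Slc37a4) and 25 (Pck1) bases downstream of the annotated start of the most-read transcript. A part of each window thus lies after that annotated start. Capitals mark any match, on either strand, to 4 short motifs: the TATA box TATAAA, the forkhead-type core TGTTTT, the cyclic AMP response element core TTACGT, and the E-box CACGTG.
G6pc: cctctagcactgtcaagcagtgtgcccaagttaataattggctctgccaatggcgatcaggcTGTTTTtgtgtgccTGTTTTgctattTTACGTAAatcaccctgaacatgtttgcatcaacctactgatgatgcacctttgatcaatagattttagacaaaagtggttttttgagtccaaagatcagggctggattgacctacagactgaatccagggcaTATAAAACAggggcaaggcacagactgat
Slc37a4: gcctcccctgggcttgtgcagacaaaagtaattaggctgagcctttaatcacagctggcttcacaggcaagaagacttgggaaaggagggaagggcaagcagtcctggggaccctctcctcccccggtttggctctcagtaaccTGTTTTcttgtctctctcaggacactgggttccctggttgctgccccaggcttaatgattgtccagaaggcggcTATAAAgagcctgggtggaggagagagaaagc
Pck1: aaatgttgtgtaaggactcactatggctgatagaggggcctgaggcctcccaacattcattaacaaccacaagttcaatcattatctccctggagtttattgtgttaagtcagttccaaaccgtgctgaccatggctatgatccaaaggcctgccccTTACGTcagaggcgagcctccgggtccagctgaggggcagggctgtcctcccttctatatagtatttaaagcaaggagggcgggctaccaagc

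G6pc had a TATAAA 29 bases before its start, 3 matches to TGTTTT of which 1, on the minus strand, overlapped the TATAAA, and 2 overlapping matches to TTACGT, on opposite strands, 162 and 160 bases before the start. Slc37a4 had 1 TATAAA, 32 bases before the start, and 1 TGTTTT. Pck1 had 1 TTACGT, 93 bases before the start, and no exact match to the other motifs found in G6pc. Variant spellings of a motif were not sought. None of the 3 held CACGTG, whereas G6pc3 held 2 and Pcx 1. Among 32851 RefSeq upstream regions of the same length, 12.4% held TATAAA and 19.8% held TGTTTT, while 2.4% held TTACGT and 6.02% held CACGTG. These matches describe letters in a window and not bound sites.

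Libraries held between 3924674 and 10046158 expected counts (median 5980276). Levels below are in CPM, read counts scaled to a common library total. One of the 2 GK cultures of mouse 3 held 1462 CPM of Gckr, far above its sister cultures, and results are also given without it where they depend on it. All 7 hepatocyte markers measured were tested, and their summed CPM ranged from 67670 to 132600 over the 30 samples. The summed macrophage markers (8 of 8 tested) ranged from 205 to 337 CPM over all samples and were 235, 334 and 295 CPM in mice 1 to 3 with GK alone. The endothelial markers (6 of 6 tested) ranged from 50.5 to 113 CPM and were highest with GK alone in mice 1 and 3 (82.8 and 113 CPM). In mouse 2 they were lowest with GK alone (69.4 CPM). The cholangiocyte markers (2 of 5 tested) were 143 to 245 CPM in mouse 1 and at most 34.2 CPM in the others, and the stellate markers (3 of 6 tested) were 20.4 to 33.5 CPM in mouse 1 and 59.6 to 153 CPM in the others. The stellate sum was also highest with GK alone in mice 1 and 3 (33.5 and 82.6 CPM), and in mouse 2 it was 136 CPM, within a range of 122 to 153 CPM. The part of these cells in the results was not tested. No marker gene of the macrophage, endothelial, stellate or cholangiocyte lists was called when GK alone was compared with the 5 combined groups. In bulk RNA fewer cells of a type and less RNA per cell cannot be told apart.

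The 7 genes differed widely in level, here given in untreated hepatocytes per length, as CPM divided by the read-weighted transcript length in kilobases. Pcx had 95.1 ± 22.7 and Fbp1 64.4 ± 5.84 CPM per kilobase (SD, n = 3 mice). Slc37a4 followed at 17.4 ± 8.21 and Pck1 at 7.86 ± 7.09, with overlap between mice for this pair but not between Pcx and Fbp1. The 3 lowest were G6pc3 (2.28 ± 0.189), Pck2 (2.13 ± 1.36) and G6pc (0.942 ± 0.698), and the ranges of Pck2 and G6pc over mice overlapped, as did those of Pck2 and G6pc3. With GK alone G6pc had 6.15 ± 4.40 CPM per kilobase, beside 6.78 ± 4.74 for Pck1 and 2.32 ± 1.36 for Pck2. The G6pc transcript was sparse in these cultures, at 1007 reads over all 36 libraries (median 16.1, at most 189.5), against 84950 for Pcx.

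**Figure D1:**
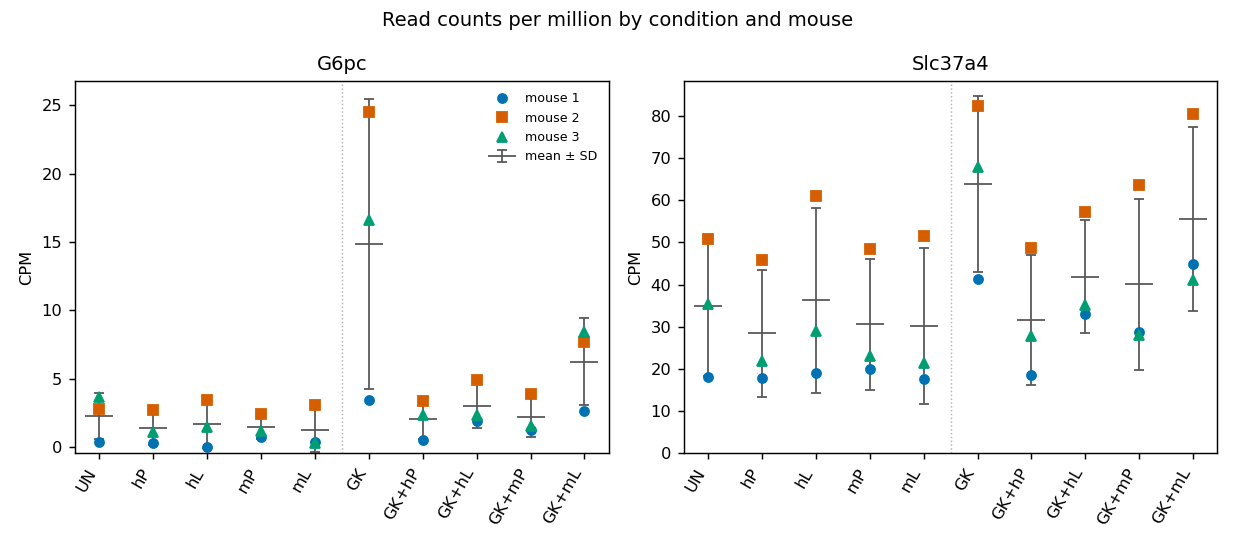
Read counts scaled to a common library total (CPM, linear axis) of G6pc (left) and Slc37a4 (right) in the 10 conditions, untreated (UN) and the GKRP vectors hP, hL, mP and mL to the left of the dotted line and the same with GK overexpression to its right. Symbols are the 3 mice and bars the mean ± SD. G6pc was highest with GK alone in each of the 3 mice (3.45, 24.5 and 16.6 CPM) and Slc37a4 in mice 2 and 3.

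G6pc (ENSMUSG00000078650, chromosome 11 of GRCm39, 101258369 to 101268729, plus strand) rose with GK overexpression. In untreated hepatocytes it was 0.396, 2.77 and 3.65 CPM in mice 1, 2 and 3, and with GK alone 3.45, 24.5 and 16.6 CPM. Every mouse thus rose, by 8.71, 8.83 and 4.55 times, although the GK value of mouse 1 lay below the untreated value of mouse 3. The separate cultures showed the same, at 0.161 and 0.759 against 4.74 and 2.6 CPM in mouse 1, 2.82 and 2.81 against 42.7 and 15.7 CPM in mouse 2, and 4.97 and 2.75 against 19.3 and 13.5 CPM in mouse 3. The 2 untreated cultures of mouse 1 held 1 and 3 reads of G6pc, so the ratio of 8.71 is imprecise. With the GKRP vectors at endogenous GK the levels were 0 to 0.717 CPM in mouse 1 and 2.43 to 3.48 CPM in mouse 2, on both sides of the untreated value, whereas in mouse 3 all 4 (1.14, 1.5, 1.20 and 0.311 CPM with hP, hL, mP and mL) lay below it. The 0 was the hL culture of mouse 1, where 3 reads would have been 0.703 CPM.

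Against the 5 combined groups of endogenous GK, the log2 fold change of G6pc was 3.17 (SE 0.55, 95% interval 2.04 to 4.30, adjusted p = 0.00217, edgeR's quasi-likelihood F test with Benjamini-Hochberg adjustment over 12177 genes), higher in 3 of 3 mice. It was the only member called among the 7, where 0.394% of all genes tested were called raised and 0.0328% lowered (a gene was called where its adjusted p was below 0.05 and its fold either reached 1.3 or did not exceed 0.7). The call depended on the mice: the value was 3.10 without mouse 3 (adjusted p = 0.495) and 3.25 without mouse 2 (adjusted p = 0.0904), while without mouse 1 it was 3.18 (adjusted p = 0.000562). With the mouse as a term, which compares conditions within an animal, it was 3.12 (SE 0.31, adjusted p = 2.26e-07), where 1.3% of genes were called raised and 0.69% lowered. Without the GK culture that held Gckr reads it was 3.07 (adjusted p = 0.00434). Against untreated hepatocytes alone the value was 2.68 (SE 0.92) and was not called (adjusted p = 1, with 0.00821% of genes called raised), but it was 2.6 (SE 0.46) and called with the mouse as a term (adjusted p = 0.00677, with 0.345% of genes called raised). That last call was lost when transcript length entered the model as well and 1 untreated culture, described with Slc37a4, was left out (2.91, adjusted p = 0.185).

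Slc37a4 (ENSMUSG00000032114, chromosome 9 of GRCm39, 44308144 to 44314265, plus strand) was also higher with GK alone than in untreated cells of the same mouse. With all 3 mice, and the 2 cultures of a mouse summed, it was called in the model with the mouse as a term and not in the model without it. It was 18.1, 50.9 and 35.5 CPM in untreated hepatocytes and 41.4, 82.3 and 67.9 CPM with GK alone, which is 2.28, 1.62 and 1.91 times the untreated value. The groups overlapped across mice, since untreated mouse 2 exceeded GK mouse 1, but not within any mouse. The 2 GK cultures of a mouse (39.2 and 42.9, 82.5 and 81.6, 64.0 and 73.1 CPM) each lay above both of its untreated cultures (15.1 and 22.6, 54.5 and 47.9, 33.8 and 37.0 CPM).

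Against the 5 combined groups its log2 fold change was 0.99 (SE 0.35, adjusted p = 0.315) and not called. With the mouse as a term it was 1.08 (SE 0.13, adjusted p = 5.79e-06) and called. Against untreated cells the same pair of models gave 0.87 (SE 0.52, adjusted p = 1) and 0.93 (SE 0.18, adjusted p = 0.0116). Without the mouse as a term, the value against the 5 combined groups was called when mouse 2 was left out (1.29, adjusted p = 0.0170) and when each culture counted as a sample (0.97, adjusted p = 0.0491). The latter setting takes the 2 cultures of a mouse as independent, which they are not. The value of Slc37a4 turned on how transcript length was treated, while G6pc against the 5 combined groups stayed called with each length setting (3.36 to 3.46). In 1 untreated culture of mouse 2, and in none of the other 35, 513 transcripts of 500 bases or more had an effective length under 5 bases in the deposited files. One was a retained-intron transcript of Slc37a4, whose 93.5 reads there became 1056 TPM at an effective length of 1.32 bases. With a transcript length offset Slc37a4 against the 5 combined groups was -2.15 (adjusted p = 0.997). Without that culture the length offset gave 0.78, and 0.83 with the mouse as a term, with no call (adjusted p = 0.999 with the mouse as a term), so the call against the 5 combined groups, made on read counts with the mouse as a term, was not made with the length offset. Against untreated cells the length offset gave a call in the opposite direction (-4.42, adjusted p = 0.0405), which was 0.19 and not called when that culture was left out. Its exons also overlap those of Trappc4 on the opposite strand, and the strand setting of the counting was not given in the sources used here, so the gene of origin of a part of its reads is uncertain.

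**Figure D2:**
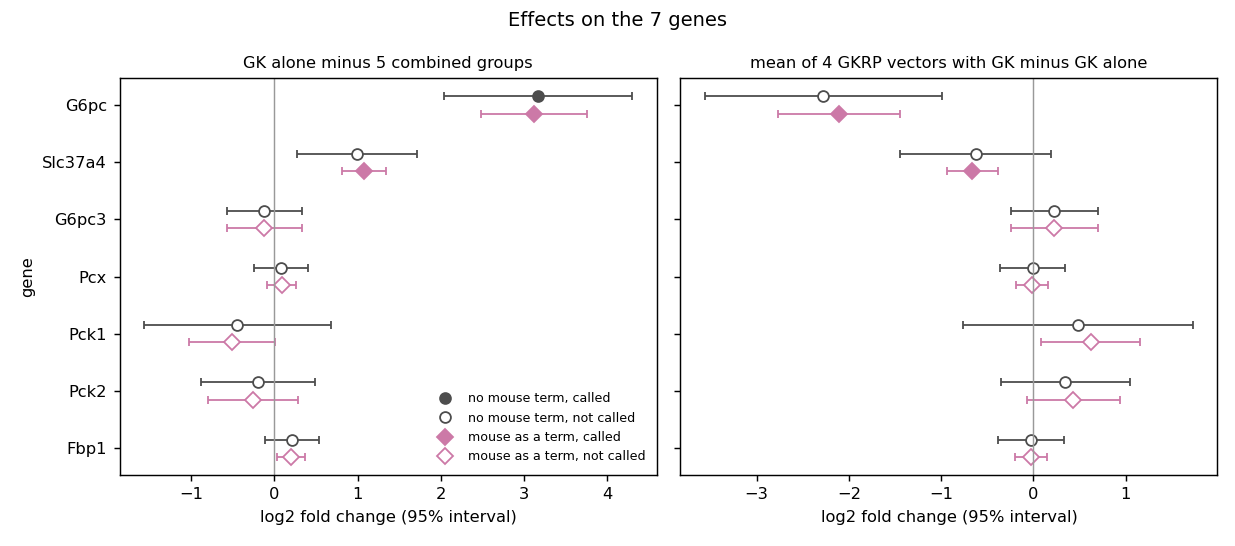
Log2 fold changes of the 7 genes with 95% intervals, for GK alone minus the 5 combined groups (left) and the average of the conditions with GK and a GKRP vector minus GK alone (right). Circles are the model without and diamonds the model with the mouse as a term, and filled symbols passed the threshold. G6pc and Slc37a4 rose on the left (3.12 and 1.08 with the mouse as a term) and fell on the right (-2.11 and -0.66), and the other 5 genes were not called in either.

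The members beside G6pc and Slc37a4 were not called in the comparison of GK alone with the 5 combined groups, in either model. Fbp1, the bisphosphatase, had a log2 fold change of 0.21 (95% interval -0.11 to 0.54) and was higher in 3 of 3 mice. Pcx, the carboxylase, had 0.08 (-0.24 to 0.40). Pck1 had -0.45 (-1.57 to 0.68), Pck2 -0.19 (-0.88 to 0.49) and G6pc3, the widely expressed paralog of G6pc, -0.12 (-0.57 to 0.33). The intervals of Fbp1 and Pcx were narrow, and those of all 5 genes ended below the lower bound of G6pc (2.04).

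The conditions with GK and GKRP were compared with the same GK samples as above. G6pc was lower than with GK alone under each of the 4 vectors in each of the 3 mice. With hP it was 0.510, 3.39 and 2.36 CPM, which was 14.8, 13.9 and 14.2% of GK alone in the same mouse. With hL it was 1.88, 4.89 and 2.32 CPM, and with mP 1.23, 3.86 and 1.51 CPM. With mL it was 2.61, 7.70 and 8.45 CPM, or 75.8, 31.4 and 50.9% of GK alone. The mean percentage was thus 14.3 ± 0.471 with hP, 20.1 ± 13.7 with mP, 29.5 ± 21.9 with hL and 52.7 ± 22.3 with mL (SD, n = 3). The hP value of mouse 1, 0.510 CPM in a library of 5524080 counts, rests on very few reads. The SD of 0.471 therefore does not show how precise the percentage with hP is.

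For the mean of the 4 vectors the log2 fold change of G6pc against GK alone was -2.28 (SE 0.62) and missed the threshold (adjusted p = 0.0585, with 0.501% of genes called lowered), while it was -2.11 (SE 0.32) and called with the mouse as a term (adjusted p = 0.000134, with 1.42% called lowered). It stayed called with the mouse as a term, the length offset and the untreated culture left out (-2.27, adjusted p = 0.00818). Without mouse 1 it was -2.41 and called in the model without that term (adjusted p = 0.0225). By vector none was called without the mouse as a term, where the called lowered genes were 0.246% (hP), 0.131% (hL), 0.616% (mP) and 0.0328% (mL) of all. With it the value was -2.75 for hP (adjusted p = 0.00121, 1.27% of genes called lowered) and -2.58 for mP (adjusted p = 0.00161, 2.82% called lowered). It was -2.07 for hL (adjusted p = 0.0173, 0.912% called lowered) and -1.03 for mL (adjusted p = 0.275, 0.452% called lowered). Only mL did not pass the threshold, and its difference from mP was tested directly (given with the 446L and 446P forms).

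Slc37a4 was 48.3 ± 9.51% of GK alone with hP, 62.6 ± 18.9% with mP, 67.1 ± 14.2% with hL and 89.1 ± 25.2% with mL. All these percentages, like those of G6pc, share the GK samples as their base, and the SDs of neighbours in the order overlapped. It was lower than GK alone in 3 of 3 mice with hP (18.5, 48.6 and 27.9 CPM), hL (33.0, 57.2 and 35.2 CPM) and mP (28.6, 63.6 and 28.0 CPM), and in 2 of 3 with mL (45.0, 80.5 and 41.2 CPM). For the mean of the 4 vectors its log2 fold change was -0.62 (SE 0.40, adjusted p = 0.732), and -0.66 (SE 0.13, adjusted p = 0.0023) with the mouse as a term. In that model it was called with hP (-1.08, adjusted p = 0.000573) and mP (-0.74, adjusted p = 0.0101) and not with hL (-0.61, adjusted p = 0.0636) or mL (-0.22, adjusted p = 0.656). With the length offset, the mouse as a term and the untreated culture left out the mean was -0.30 (adjusted p = 0.842).

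**Figure D3:**
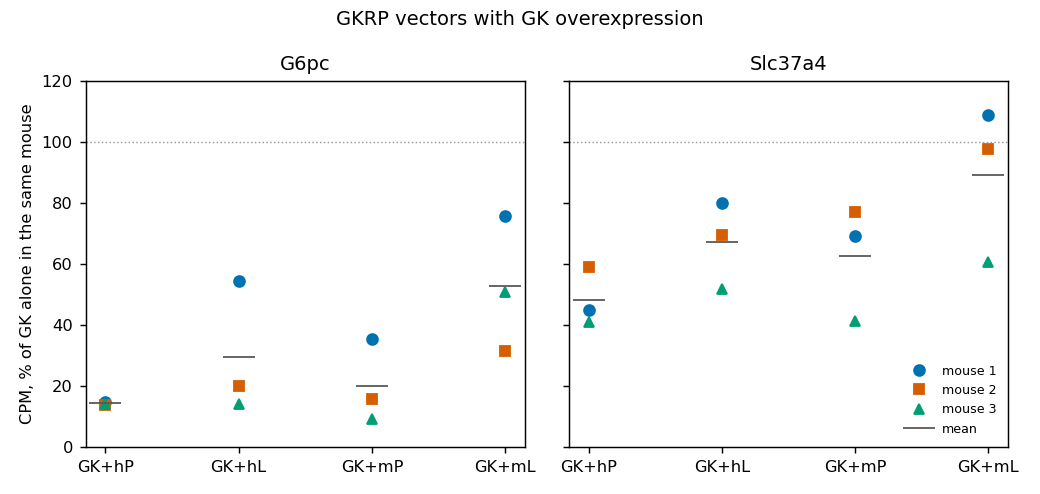
CPM of G6pc (left) and Slc37a4 (right) with GK and each GKRP vector, as a percentage of GK alone in the same mouse (dotted line, 100). Symbols are the 3 mice and bars their mean. All 12 G6pc values lie below the line, from 9.11 to 75.8%, and the mL means (52.7 and 89.1%) are the highest of each panel.

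The remaining members did not follow this pattern. Against GK alone, the mean of the 4 vectors gave log2 fold changes of -0.03 (95% interval -0.39 to 0.34) for Fbp1, -0.01 (-0.36 to 0.34) for Pcx, 0.48 (-0.76 to 1.73) for Pck1, 0.35 (-0.35 to 1.05) for Pck2 and 0.23 (-0.24 to 0.70) for G6pc3. None was called in either model.

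The 446L and 446P forms, which differ by leucine or proline at residue 446, were compared directly with GK overexpressed. G6pc was higher with mL than with mP in 3 of 3 mice, with a log2 fold change of 1.5 (SE 0.95, 95% interval -0.47 to 3.48) that was not called (adjusted p = 1, with 0.0164% of genes called either way, and adjusted p = 0.345 with the mouse as a term, with 0.214% called). For the human forms the difference, hL minus hP, was 0.52 (SE 0.98, -1.5 to 2.54), higher in 2 of 3 mice. There edgeR called 0% of genes (255 had an unadjusted p below 0.05, and DESeq2 called 11) and 0.131% with the mouse as a term. Slc37a4 was higher with 446L than with 446P in 3 of 3 mice in both species, by 0.47 (-0.62 to 1.57) for mouse and 0.40 (-0.70 to 1.5) for human GKRP, and was not called in either model. No other member was called between the forms. At endogenous GK the difference of G6pc was -0.0012 (SE 0.52, -1.08 to 1.08) and that of Slc37a4 0.17 (SE 0.38, -0.62 to 0.95), where edgeR called 0% of genes (225 at an unadjusted p below 0.05, and 20 by DESeq2) and 0.0821% with the mouse as a term. These intervals are wide, so the forms were not shown to act alike.

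GK was also compared with endogenous GK within each vector. G6pc was higher with GK in 3 of 3 mice under all 4 vectors, with log2 fold changes of 2.39 under mL, 0.82 under hL, 0.60 under mP and 0.58 under hP. None was called, where edgeR called 0.0164% of genes raised under mL and 0% under each other vector (262, 608 and 151 genes had an unadjusted p below 0.05 under hL, mP and hP, and DESeq2 called 18, 14 and 15). With the mouse as a term the difference under mL was called for G6pc (2.61, adjusted p = 0.0411) and Slc37a4 (0.98, adjusted p = 0.0214), where 0.222% of genes were called raised, and under the other vectors for neither. The mean over the 4 vectors was called in that model only, at 1.24 (adjusted p = 0.0474) for G6pc and 0.46 (adjusted p = 0.0266) for Slc37a4, with 0.14% of genes called raised against 0.0164% without the mouse as a term. The GK effect with GKRP minus the GK effect without it was -1.58 (SE 1.03, -3.71 to 0.54) for G6pc and -0.47 (SE 0.59, -1.68 to 0.75) for Slc37a4 and was not called in either model. For this average edgeR called 0% of genes (178 at an unadjusted p below 0.05, and 20 by DESeq2) and also 0% with the mouse as a term (494 at an unadjusted p below 0.05, and 39 by DESeq2). By vector G6pc was -2.1 for hP, -1.86 for hL, -2.08 for mP and -0.29 for mL, none called, where at most 0.00821% of genes were called in either model.

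At endogenous GK none of the 7 genes was called between any GKRP vector and untreated hepatocytes, in either model, where the share of all genes called either way was 0.78% for hP, 0.879% for hL, 1.12% for mP and 1.05% for mL (with the mouse as a term 2.46, 2.97, 3.31 and 3.16%). For the average of the 4 vectors these shares were 1.89 and 4.16%, again with none of the 7. G6pc was at -0.69 on the log2 scale for the mean of the 4 vectors (SE 0.72, interval -2.18 to 0.80), a direction seen in 2 of 3 mice and largest in mouse 3 (-1.69, against -0.26 and 0.05 in mice 1 and 2). Slc37a4 was between 17.7 and 61.0 CPM with the vectors and between 18.1 and 50.9 CPM without.

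**Figure D4:**
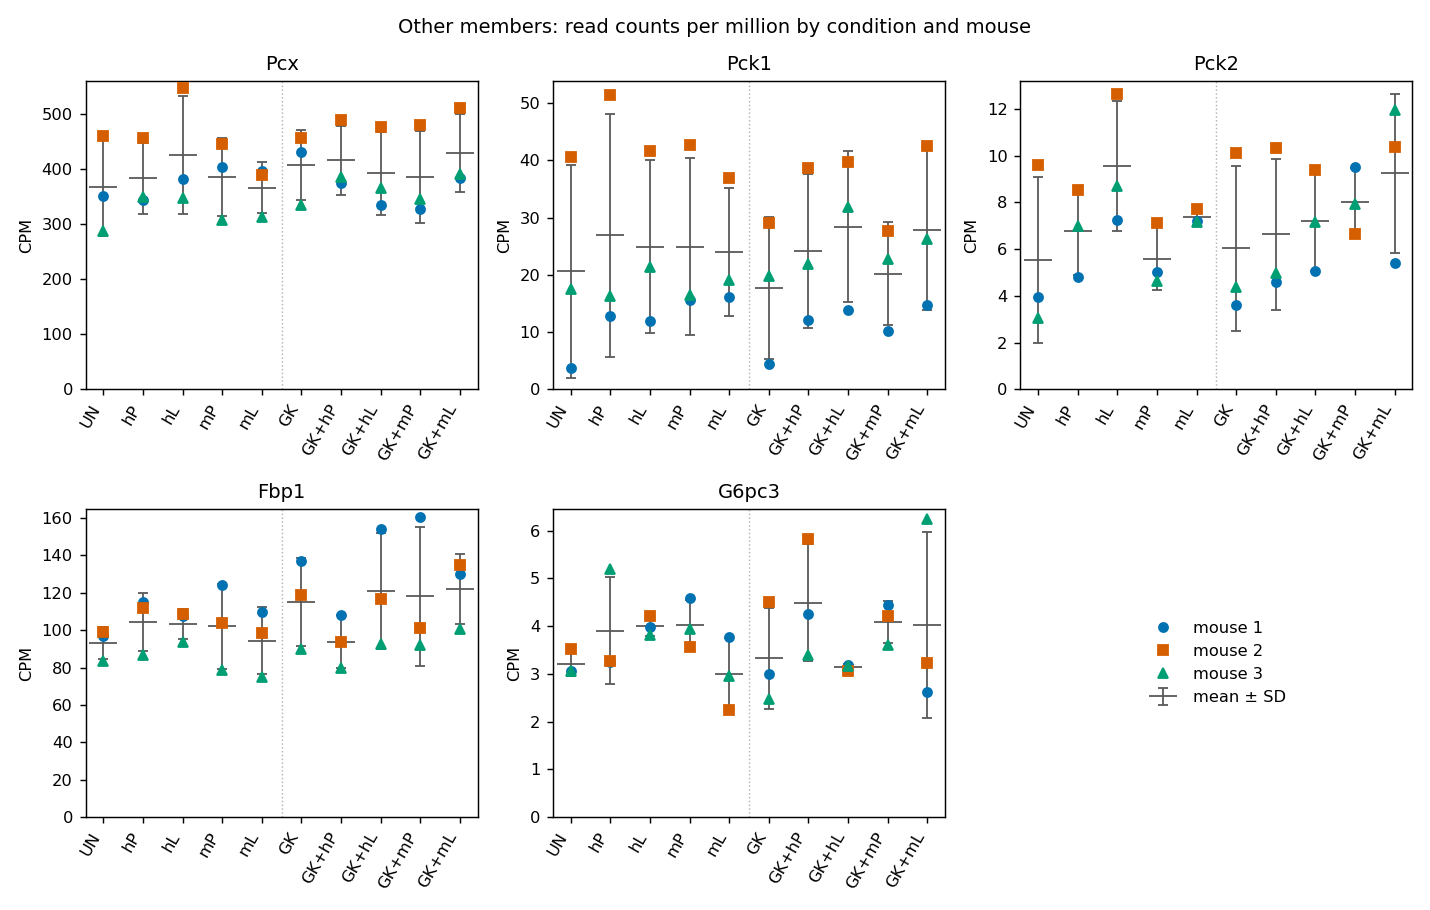
Read counts scaled to a common library total (CPM, linear axes) of Pcx, Pck1, Pck2, Fbp1 and G6pc3 in the 10 conditions, laid out as for G6pc and Slc37a4 with the dotted line before the conditions with GK. Symbols are the 3 mice and bars the mean ± SD. Pck1 of mouse 1 (circles) is at 3.76 CPM untreated and 4.45 CPM with GK alone and between 10.3 and 16.1 CPM in the 8 conditions with a GKRP vector.

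Pck1 (ENSMUSG00000027513, chromosome 2, 172994744 to 173001066), the cytosolic carboxykinase, differed mainly between mice. Its mean over the 10 conditions was 11.6 CPM in mouse 1, 39.1 CPM in mouse 2 and 21.3 CPM in mouse 3, and 73.6% of its variance on the log2 scale lay between mice against 11.7% between conditions. Within mouse 1 it was 3.76 CPM in untreated hepatocytes and 4.45 CPM with GK alone, and 10.3 to 16.1 CPM in all 8 conditions with a GKRP vector. The 4 cultures behind the low values were 3.27, 4.49, 3.63 and 5.06 CPM. Mice 2 and 3 did not show this step: untreated and GK values were 40.6 and 29.1 CPM in mouse 2 against 27.7 to 51.4 CPM with GKRP vectors, and 17.5 and 19.8 CPM in mouse 3 against 16.4 to 31.8 CPM. For the mean of the 4 vectors against untreated cells the log2 fold change of Pck1 was 0.28 (SE 0.59, adjusted p = 1), and 0.50 (SE 0.25, adjusted p = 0.311) with the mouse as a term.

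Tat, the glucocorticoid-induced tyrosine aminotransferase, was the gene whose pattern was most like that of Pck1 (r = 0.88 within mouse over 30 samples). In mouse 1 Tat was 89.2 CPM untreated, 85.5 CPM with GK alone and 226 to 309 CPM in the 8 conditions with a GKRP vector. The same values were 313, 273 and 320 to 409 CPM in mouse 2, and 192, 185 and 215 to 278 CPM in mouse 3. Unlike Pck1, Tat was thus higher in all 8 vector conditions in each mouse. Klf15, a transcription factor also induced by glucocorticoids, was called raised for the mean of the 4 vectors, both against untreated cells (log2 fold change 1.1, SE 0.28, adjusted p = 0.0410) and with GK against GK alone (1.21, SE 0.29, adjusted p = 0.0230, with 1.11% of genes called raised, and 2.92% with the mouse as a term). Klf15 was higher in each of the 8 vector conditions than in untreated hepatocytes in each mouse. Of 6 insulin and glucocorticoid responsive genes, none was called for the mean of the 4 vectors against untreated cells in either model. Of all genes 1.89% were called there, and 4.16% with the mouse as a term. Without that term Tat was at 0.56, Fkbp5 and Srebf1 at 0.37, Tsc22d3 at 0.19, Irs2 at 0.07 and Igfbp1 at -0.26. The part of glucocorticoid action was not tested.

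Pcx (ENSMUSG00000024892, chromosome 19, 4559902 to 4672189) and Fbp1 (ENSMUSG00000069805, chromosome 13, 63012567 to 63036263, minus strand) were the steadiest members. The condition means of Pcx ran from 366 ± 46.5 CPM (mL) to 428 ± 71.1 CPM (GK with mL), 1.17 times apart. Those of Fbp1 ran from 93.1 ± 8.44 CPM (untreated) to 122 ± 18.6 CPM (GK with mL), 1.31 times apart. Mice differed by more, with Pcx highest in mouse 2 (471 CPM over the 10 conditions) and Fbp1 in mouse 1 (124 CPM), and 70.2 and 58.6% of their log2 variance lay between mice. Fbp1 was lower with GK and hP than with GK alone in 3 of 3 mice (108, 93.9 and 79.7 against 137, 119 and 89.8 CPM), but was not called (log2 fold change -0.29, SE 0.22, adjusted p = 1). The value of Pcx with GK alone against the 5 combined groups also turned on transcript length, at -1.62 with the length offset and -0.12 with it when the untreated culture that had short effective lengths was left out.

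Pck2 and G6pc3 were low throughout, at 3.06 to 12.6 and 2.24 to 6.25 CPM. The condition means of Pck2, the mitochondrial carboxykinase (ENSMUSG00000040618, chromosome 14, 55777542 to 55788758), ran from 5.54 ± 3.54 CPM (untreated) to 9.54 ± 2.78 CPM (hL). Its most-read transcript was a retained intron with 26.7% of its reads, so these counts are not those of the coding transcript alone. G6pc3 (ENSMUSG00000034793, chromosome 11, 102080410 to 102088876) had 0.304% of its variance between mice, the least of the 7, and 68.4% in neither mouse nor condition. Its exons overlap Hdac5 on the opposite strand.

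Over the 30 samples, after the mean of each mouse was subtracted, G6pc and Slc37a4 correlated at r = 0.91 in log2 CPM. The gene with the highest r to G6pc was Pdhb (0.91), a subunit of pyruvate dehydrogenase, before Slc37a4. Slc37a4 had the highest r to G6pc, Pdhb (0.91) and Rgs16 (0.90). Fbp1 followed at r = 0.61 with G6pc and 0.64 with Slc37a4, while Pcx (0.19 with G6pc), Pck1 (-0.10), Pck2 (-0.11) and G6pc3 (-0.07) did not. Samples of 1 mouse share a hepatocyte preparation, so these values describe the 30 samples and carry no test. The genes most like the others were Bag6, Scap and C4b for Pcx (0.91, 0.91 and 0.90), Cyp4f14, Aldoa and Mrpl17 for Fbp1 (0.84, 0.82 and 0.81), Napa, Hspa1b and H2-Q7 for Pck2 (0.81, 0.80 and 0.79), and Snx8, Mul1 and Lrp10 for G6pc3 (0.75, 0.71 and 0.70). After Tat, Slc27a2 (0.82) was next for Pck1.

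**Figure D5:**
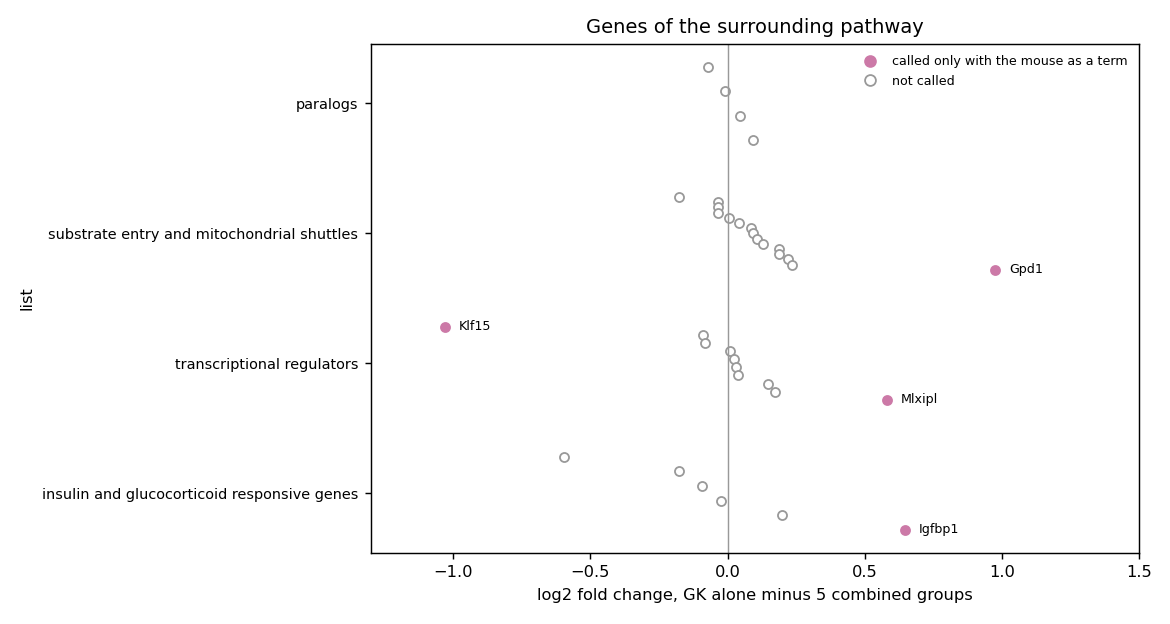
Log2 fold change of GK alone minus the 5 combined groups for the tested genes of 4 lists around gluconeogenesis, 1 point per gene, from the model without the mouse as a term. Pink points passed the threshold only with the mouse as a term, and open points in neither model. Klf15 (-1.03) is the pink point on the left, and Gpd1, Mlxipl and Igfbp1 are those on the right.

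Around these genes, the enzymes that act beside or against them were also measured. Pklr, the liver pyruvate kinase that opposes the carboxylase and carboxykinase steps, was 115, 55.6 and 96.7 CPM in untreated hepatocytes and 178, 121 and 229 CPM with GK alone, without overlap between the groups. It was called raised with GK alone against the 5 combined groups (log2 fold change 1.58, SE 0.26, adjusted p = 0.00102), and called lowered for the mean of the 4 vectors with GK against GK alone (-1.37, SE 0.24, adjusted p = 0.00155). Against untreated cells alone the value of Pklr with GK was smaller, at 0.98 (SE 0.33, adjusted p = 1), and 1.00 with the mouse as a term, where it was called (adjusted p = 0.00101). The vectors alone had Pklr at -0.80 against untreated cells in that model, also called (adjusted p = 4.34e-05), and they make up 4 of the 5 combined groups. With the mouse as a term Pfkl, a phosphofructokinase subunit (0.40), and Gpi1 (0.57) and Eno1 (0.44), enzymes of reversible steps, were also called raised with GK alone against the 5 combined groups. Against untreated cells in the same model Gpi1 was called (0.47, adjusted p = 0.00433), and Pfkl (0.33, adjusted p = 0.727) and Eno1 (0.29, adjusted p = 0.297) were not.

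Of the 15 tested genes of substrate entry and mitochondrial shuttles none was called in that comparison without the mouse as a term (median 0.09 against -0.01 over all genes tested), and 1 with it, Gpd1, the cytosolic glycerol phosphate dehydrogenase (1.02, adjusted p = 3.95e-06, and 0.74, adjusted p = 0.0133, against untreated cells). Gpd1 was lower in that model for the mean of the 4 vectors with GK against GK alone (-0.76, adjusted p = 4.42e-05). Of the 4 tested paralogs none was called with GK alone against the 5 combined groups in either model (median 0.02), and Fbp2, the muscle form of the bisphosphatase, was called with GK and mP against GK alone (1.07, SE 0.28, adjusted p = 0.0483) and in no other comparison without the mouse as a term. With that term it was also called with hL against untreated cells (1.06, adjusted p = 0.0209).

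Of the 10 tested transcriptional regulators of gluconeogenesis none was called with GK alone against the 5 combined groups (median 0.03). With the mouse as a term Mlxipl, which encodes ChREBP, was called raised (0.65, adjusted p = 0.0166), as it was against untreated cells (1.12, adjusted p = 0.000752). In the same model Mlxipl was also called raised for the mean of the 4 vectors at endogenous GK against untreated cells (0.57, adjusted p = 0.00619). Its means were 44.5 CPM untreated, 63.5 to 69.9 CPM with the GKRP vectors at endogenous GK and 93.0 CPM with GK alone. Klf15 was called lowered against the 5 combined groups (-1.06, adjusted p = 0.0335) and not against untreated cells (-0.16, adjusted p = 1), where its means were 6.13 CPM with GK alone and 6.54 CPM untreated, beside 12.5 to 16.3 CPM with the GKRP vectors. Of the 6 insulin and glucocorticoid responsive genes none was called without the mouse as a term (median -0.06), and Igfbp1, an insulin-repressed gene like G6pc, was called raised with it (0.61, adjusted p = 0.0218), but not against untreated cells (0.46, adjusted p = 0.259). For the mean of the 4 vectors with GK against GK alone that list again had no call without the mouse as a term, and Tat was raised with it (0.70, adjusted p = 0.0316).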

How the data were processed

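Hepatocyte RNA of 36 cultures was sequenced. The submitters' processing notes name Salmon 1.4.0, and the methods of the study give Gencode M26 transcripts of GRCm39. The deposited files hold expected counts per transcript, not normalized, and TPM values, which the authors' Salmon run scaled by effective length within a library. Strandedness was not given in the sources used here. Expected counts were summed per gene with Gencode M39 (137570 of 139225 transcripts matched, the others held 0.392 to 0.639% of reads), and the 2 cultures of a mouse and condition, which differed by more than sampling noise, were summed and rounded. Libraries had 3924674 to 10046158 counts, and precision at the low counts of G6pc was limited by them.

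Counts were fitted with edgeR 4.0.16 (R 4.3.3; filterByExpr, TMM, quasi-likelihood F test, Benjamini-Hochberg adjustment over 12177 genes), in 6 groups for GK against the 5 combined groups and in 10 conditions otherwise, with no mouse term. The code was tested on simulated data. Samples with the same number come from the same mouse, and their deviations correlated at 0.223 on average against -0.110 between mice, so a fit with the mouse as a term (replicate block) is given beside results it changes. CPM were TMM-scaled. Levels between genes were planned on TPM but are given as CPM per kilobase, because 38.9% of the TPM of 1 untreated culture lay in transcripts with effective lengths under 5 bases. DESeq2 1.42.0, other normalization and filters, separate cultures, a transcript length offset and leaving out each mouse were tried. Leaving out that untreated culture, or the GK culture with high Gckr reads together with the mouse term, was added after the data were seen. The 7 genes, the 6 lists and the tests were chosen with earlier results of these data known. Named were the 7 genes, listed genes called in any comparison, the 3 genes most like each member, and genes a result turned on. Some genes that this rule would name, and 2 of the 6 lists as a whole, are not reported here. Those 2 lists held the calls made with GK alone against the 5 combined groups without the mouse as a term, so the other 4 lists do not give the full count of calls.

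Promoter sequences are RefSeq's (GRCm38.p6), a different build from that of the counts, and were matched by symbol for all 7 genes. Exons of G6pc3, Slc37a4, Pcx and Pck2 overlap genes on the opposite strand.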

Additional observations from a re-analysis of the deposited data

Results flagged for a closer look

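One of the 6 cultures with GK alone, from mouse 3, held 1462 CPM of Gckr, against 51.8 to 98.1 CPM in the other 5, and stood apart from them by Dixon's test, applied to 18 groups of cultures. Chance gives about 1 such result in 20 groups. Cultures with a mouse GKRP vector held 9010 to 23053 CPM of Gckr. In that culture G6pc was 19.3 CPM and Slc37a4 64.0 CPM, against 13.5 and 73.1 CPM in the other GK culture of the same mouse. Without it the log2 fold change of G6pc with GK alone against the 5 combined groups was 3.07 (edgeR, adjusted p = 0.00434), and 3.01 with the mouse as a term (adjusted p = 6.29e-07). The source of these Gckr reads was not tested.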

How the results depend on the processing

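Of the 7 genes 1 was called with GK alone against the 5 combined groups and none in the other comparisons. With the mouse as replicate block the counts became 2 for GK against the 5 combined groups, 2 against untreated cells, 5 over the separate GKRP vectors with GK against GK alone and 2 for their average, 2 for GK within each vector and 2 for its average, and the block changed no other call. The counts were equal without the GK culture with high Gckr reads, and with DESeq2 and the block 2, 2, 6, 2, 2 and 1. Taking each culture as a sample, which counts the 2 cultures of a mouse as independent, gave 2 for GK against the 5 groups. It gave 1 for GKRP with GK on average, which was also 1 with no filter and with a stricter filter. Leaving out each mouse gave 0 to 1 for GK against the 5 groups (0 without mouse 3, and without mouse 2 the gene called was Slc37a4 in place of G6pc) and 0 to 1 for GKRP with GK on average (1 without mouse 1).

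The transcript length offset gave 2 calls for GK against untreated cells, 7 over the separate vectors and 3 for their average against untreated cells, and 2 for the GK effect with minus without GKRP. It reversed Slc37a4 against the 5 groups (-2.15), untreated cells (-4.42), with GK and mL (0.13) and in the GK effect difference (5.14), Pcx (-1.62 against the 5 groups, -3.46 against untreated cells, 0.51 for GKRP with GK), Fbp1 (-0.034, -0.86 and 0.039 likewise), G6pc3 (-0.73 against untreated cells) and Pck2 (-1.74 for GK and -1.2 for the vectors against untreated cells). Without the untreated culture with short effective lengths the offset gave 0.14 and 0.51 for Slc37a4 with GK and mL and in the GK effect difference, -0.12, -0.018 and 0.51 for Pcx, 0.023 for Fbp1 with GKRP and GK, -0.91 for G6pc3, and -0.54 and -0.0086 for Pck2. With the block as well these were 0.17 and 0.76, -0.094, -0.039 and 0.52, 0.0042, -0.91, and -0.63 and -0.083, and GKRP with GK on average had 1 call. Leaving out that culture alone gave G6pc3 -0.081 against untreated cells, and each culture as a sample gave Pcx 0.014 for GKRP with GK. The ratio of GK alone to untreated cells was 10.7 for G6pc and 0.189 for Slc37a4 in TPM, and 1.46 for Slc37a4 without that culture, against 6.53 and 1.83 in CPM. The causes were not tested beyond these settings.

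Leaving out each mouse moved G6pc3 from -0.45 to 0.094 against the 5 groups, -0.17 to 0.18 against untreated cells and -0.014 to 0.49 for GKRP with GK, Pck1 from -0.41 to 0.18 against untreated cells, and for GKRP with GK Fbp1 from -0.056 to 0.010 and Pcx from -0.086 to 0.12. Over all alternatives 757 values of single genes kept their direction and side of the threshold, 50 passed it only in the alternative, 39 reversed and 2 lost it (G6pc without mouse 2 and without mouse 3). With 3 mice and a median of 16.1 reads of G6pc a library, differences between the GKRP forms had wide intervals, and with no control vector the effects of a vector and of GKRP cannot be told apart.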
